A study of Mus musculus with 12 samples.

Results

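The urea cycle and the enzymes that make and split glutamine were followed here as a set of 10 genes, with results given for Nags, Cps1, Otc, Slc25a15, Ass1, Asl, Gls2, Glud1 and Glul, chosen by their symbols from 24296 gene symbols in the RNA sequencing table of mouse livers. All 10 were among the 13158 genes that reached a mean of 0.5 FPKM (fragments per kilobase of transcript and per 1e6 fragments) over the 12 livers and were tested. FPKM of all annotated transcripts of a symbol were summed, giving 43 transcripts for the 10 genes. The question was how far liver injury and the drug treatments changed the transcripts of ammonia disposal, and whether enzymes around the portal vein and Glul around the central vein differed.

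The livers came from male C57/BL6N mice in groups of 3, and the control livers carry no treatment label other than wild type. Model mice received carbon tetrachloride (CCl4), a liver toxin, diluted 1:9 (v/v) in olive oil. The dose was 5 mL/kg body weight, injected into the peritoneum 2 times a week for 8 weeks. The remaining groups received the same injections and, from week 5, silibinin, a flavonolignan of milk thistle, or phloridzin, a plant glucoside, at 40 mg/kg for phloridzin and a lower dose for silibinin, so the drugs were not matched by dose. Libraries were made from whole liver, with a depth, estimated from the steps between low FPKM values, of 83.65 to 110.85 M (1e6) fragments.

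Ammonia is a toxic product of amino acid breakdown, and the liver removes it by complementary routes. Periportal hepatocytes, which meet portal blood first, build urea: N-acetylglutamate made by Nags switches on Cps1 in the mitochondrion, Otc joins carbamoyl phosphate to ornithine, Slc25a15 exchanges ornithine and citrulline across the inner membrane, and Ass1 and Asl carry the cycle on in the cytosol. Gls2 feeds the same cells ammonia from glutamine, Glud1 links glutamate to ammonia, and Glul, kept to a thin layer of hepatocytes at the central vein, captures the ammonia that escapes as glutamine. CCl4 is made reactive by cytochrome P450 enzymes of the pericentral hepatocytes.

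In control livers the order of levels by mean FPKM of the 9 genes described was Cps1 (1463 ± 384, SD, n = 3), Ass1 (1049 ± 164), Glul (378 ± 76.0), Glud1 (312 ± 24.4), Asl (148 ± 10.7), Otc (49.5 ± 9.70), Nags (33.3 ± 3.45), Slc25a15 (26.5 ± 21.7) and Gls2 (18.9 ± 9.07). The ranges of neighbours overlapped for Cps1 and Ass1, for Glul and Glud1, for Nags and Slc25a15, and for Slc25a15 and Gls2. Glul was thus among the 4 most abundant transcripts of the set in control livers, whereas its mean ranked lower in every CCl4 group. The spread of values differed widely between members. Over all 12 livers the highest value was 1.47 times the lowest for Nags and 1.48 times for Glud1. It was 8.87 times for Slc25a15, 11.0 times for Gls2 and 14.5 times for Glul.

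Against this spread, few members changed. By limma with Benjamini-Hochberg adjustment over all 13158 genes, 1 of the 10 members passed an adjusted p of 0.05 between model and control livers, and it was Glul, which was lower. Of all genes tested, 31.1% were called higher and 3.80% lower in that comparison. Silibinin livers against model livers gave 2 members, Glul and Otc, both higher, where 2.62% of all genes were called higher and 11.4% lower. Phloridzin livers against model livers gave 1 member, Glul, again higher, where 2.50% of all genes were called higher and 10.4% lower. Compared with control, Glul was the 1 member called, and it was lower, in silibinin livers (4.59% of genes higher, 0.433% lower) and in phloridzin livers (7.51% higher, 0.479% lower). Phloridzin against silibinin gave 0 of 10 members by limma, with 0 at an unadjusted p under 0.05, and 0.00760% of all genes were higher and 0.0152% lower. The comparisons with control shared the control livers and those with model shared the model livers, so they are not independent of each other.

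**Figure D1:**
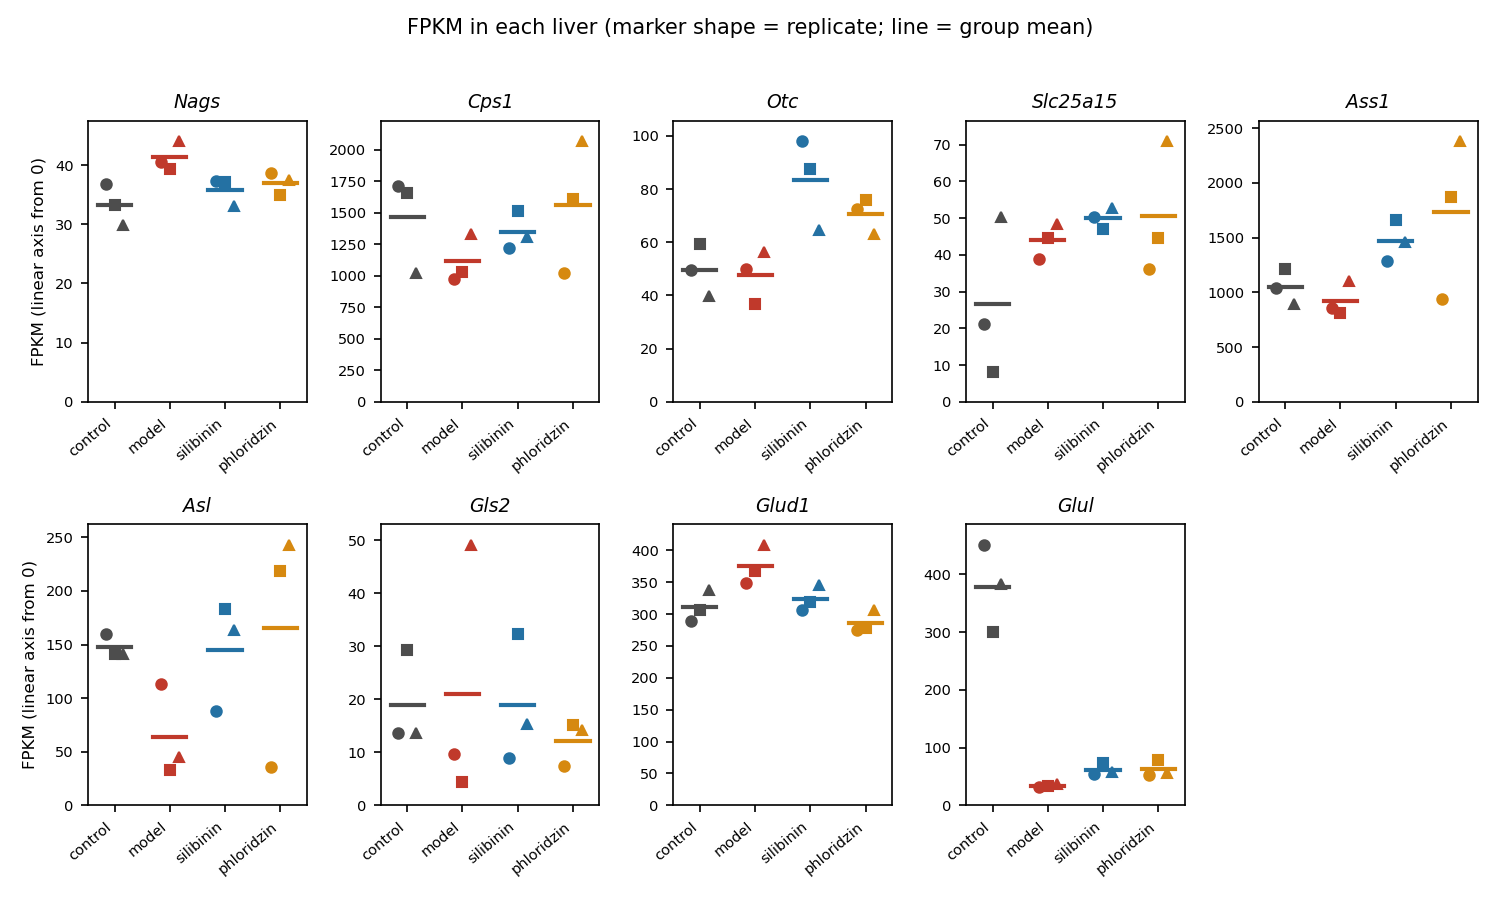
Summed FPKM of the 9 genes described (linear axes from 0) in the 12 livers by group, with a marker shape for each replicate and a line at the group mean. Glul lay between 299.5 and 451 FPKM in control livers and between 31.1 and 78.0 FPKM in every liver that received CCl4; in the model group Asl ranged from 32.6 to 114 FPKM and Gls2 from 4.48 to 49.2 FPKM.

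The deposited scale bears on small changes. As deposited, the median log2 fold change over all genes was 0.34 between model and control livers, and after scaling each liver by the median ratio of its genes it was 0.01. The calls moved with it, from 4094 higher and 500 lower as deposited to 1727 higher and 1547 lower when scaled. For silibinin against model the median of all genes was -0.15 as deposited, with 345 genes higher and 1504 lower (732 and 850 when scaled), and for phloridzin against model it was -0.11, with 329 higher and 1362 lower (621 and 823 when scaled). Against control the splits were 604 higher and 57 lower for silibinin (415 and 154 when scaled) and 988 higher and 63 lower for phloridzin (559 and 218 when scaled). Transcripts assembled by the authors' pipeline without a gene symbol or position held 25.5% to 29.8% of the FPKM in control livers and 19.4% to 21.3% in the livers given CCl4. They were not assigned to any gene here, so that each sum covers annotated transcripts, and their part in the results was not tested.

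At the entry to the cycle, Nags makes the activator that Cps1 requires. Nags was measured at 36.8, 33.3 and 29.9 FPKM in control livers, 40.5, 39.4 and 44.0 in model livers, 37.4, 37.1 and 33.1 in silibinin livers, and 38.6, 35.0 and 37.4 in phloridzin livers. Each model liver was above each control liver, and the drug groups lay below the model group and overlapped the control group. The log2 difference of model against control was 0.31 (standard error 0.11) and missed the threshold, with an adjusted p of 0.0586 by limma, which was 0.0480 without control replicate 1. Relative to the median of all genes the difference was -0.03, and after scaling it was -0.13, so its direction depended on the scale.

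Cps1, which fixes ammonia into carbamoyl phosphate, was the most abundant member in control livers. Its values were 1709, 1659 and 1020.4 FPKM in control livers, 974, 1033 and 1334 in model livers, 1218, 1514 and 1304 in silibinin livers, and 1020.1, 1607 and 2066 in phloridzin livers. All groups overlapped, and the lowest and the highest Cps1 values of the drug groups were both in the phloridzin group. The log2 difference of model against control was -0.37 (95% interval -1.03 to 0.29; adjusted p = 0.358, limma), and against model it was 0.28 for silibinin and 0.44 for phloridzin. Without control replicate 1 or 3 the difference of model from control was -0.24 or -0.61, and without phloridzin replicate 1 or 3 the phloridzin value was 0.72 or 0.21. After scaling, the Cps1 difference between model and control was -0.82 with a limma adjusted p of 0.0856.

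Otc, the enzyme that forms citrulline, was the member besides Glul that passed in a drug comparison. It was measured at 49.5, 59.2 and 39.8 FPKM in control livers, 50.1, 37.0 and 56.5 in model livers, 98.0, 87.7 and 64.8 in silibinin livers, and 72.5, 76.0 and 63.2 in phloridzin livers. Control and model livers overlapped, while each of the 6 drug-treated livers was above each model liver and each control liver. Otc rose in silibinin livers by a log2 fold change of 0.79 (standard error 0.21; adjusted p = 0.0311, limma with Benjamini-Hochberg adjustment), from 47.9 ± 9.97 to 83.5 ± 17.0 FPKM (SD, n = 3). This call was lost when only the silibinin and model livers entered the limma fit (adjusted p = 0.0668) and without model replicate 1 (0.0614), model replicate 2 (0.112), silibinin replicate 1 (0.111) or silibinin replicate 2 (0.0869). After scaling the silibinin value was 1.00 (limma adjusted p = 0.00671). For phloridzin the log2 difference was 0.57 with a limma adjusted p of 0.106, which became 0.0273 after scaling, and the difference between the drugs was -0.22 (95% interval -0.69 to 0.24).

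Slc25a15, the ornithine carrier, was uneven in the control group. It was measured at 21.2, 7.99 and 50.4 FPKM in control livers, 38.7, 44.7 and 48.5 in model livers, 50.3, 47.0 and 52.6 in silibinin livers, and 36.1, 44.5 and 70.9 in phloridzin livers. Control replicate 3 lay within the range of the CCl4 groups and the other control livers were below all of them. The log2 difference of model against control was 1.04 (95% interval -0.04 to 2.13, adjusted p = 0.123, limma). It was 1.66 without control replicate 3 (adjusted p = 0.0102) and 0.41 without control replicate 2 (adjusted p = 0.410). After scaling the difference was 0.61 (limma adjusted p = 0.435).

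In the cytosol, Ass1 condenses citrulline with aspartate. Ass1 was measured at 1039, 1217 and 889.9 FPKM in control livers, 855, 814 and 1100.5 in model livers, 1284, 1659 and 1460.4 in silibinin livers, and 942, 1873 and 2379.5 in phloridzin livers. Each silibinin liver was above each model liver, whereas phloridzin replicate 1 lay inside the model range and the remaining phloridzin livers were far above it. Ass1 did not pass in any comparison: the log2 difference was 0.67 for silibinin (adjusted p = 0.186) and 0.82 for phloridzin (adjusted p = 0.120) against model by limma. Without phloridzin replicate 1, the phloridzin difference was 1.21 and its limma adjusted p was 0.00765, and without phloridzin replicate 3 the difference was 0.54.

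Asl splits argininosuccinate into arginine and fumarate, and its mean, like that of Ass1, was lowest in model livers. Asl was measured at 160.1, 142 and 141 FPKM in control livers, 114, 32.6 and 44.9 in model livers, 87.9, 183 and 163 in silibinin livers, and 35.5, 219 and 243 in phloridzin livers. All model livers were below all control livers, and 1 liver of each drug group remained in the model range. The log2 difference of model against control was -1.40 (95% interval -2.90 to 0.09) with an adjusted p of 0.130 by limma, and it was 0.0473 when only model and control livers entered the fit. Against model, the Asl difference was 1.31 with silibinin and 1.16 with phloridzin, neither past the threshold, and without phloridzin replicate 1 the latter was 2.05 (adjusted p = 0.0178, limma). It was 0.75 without phloridzin replicate 2 and 0.68 without phloridzin replicate 3. Asl was spread over 8 annotated transcripts, of which the most abundant held 33.3% of the gene's FPKM.

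Gls2, the liver glutaminase that releases ammonia for the cycle, was the least abundant member in control livers. It was measured at 13.7, 29.4 and 13.6 FPKM in control livers, 9.65, 4.48 and 49.2 in model livers, 8.92, 32.3 and 15.4 in silibinin livers, and 7.34, 15.1 and 14.1 in phloridzin livers. All groups overlapped, and the highest and the lowest Gls2 values were both found in the model group. In model replicate 3, 39.2 of the 49.2 FPKM came from 1 transcript annotated for nonsense-mediated decay, which was listed at 8.25 FPKM in control replicate 2 and at 0 in the other 10 livers. In the protein-coding transcripts alone, Gls2 was 7.95 ± 3.65 FPKM in control livers, 2.81 ± 1.60 in model livers, 11.2 ± 9.95 in silibinin livers and 5.08 ± 1.47 in phloridzin livers (SD, n = 3). The summed log2 difference was -0.39 for model against control, 0.29 for silibinin against model and -0.18 for phloridzin against model, with limma adjusted p values of 0.707, 0.829 and 0.899. None of these signs was stable: the first was 0.31 without model replicate 2, the second -0.40 without model replicate 2 and -0.17 without silibinin replicate 2, and the third 0.73 without model replicate 3 and 0.12 without phloridzin replicate 1. The first was -1.29 without model replicate 3 and -0.80 after scaling, and by mean FPKM the model group (21.1) was above control (18.9).

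Glud1, which interconverts glutamate and 2-oxoglutarate with release of ammonia, was among the steadiest members. Glud1 was measured at 289.9, 307 and 338 FPKM in control livers, 348, 368 and 409 in model livers, 307, 318 and 346 in silibinin livers, and 276, 278 and 307 in phloridzin livers. Each model liver was above each liver of the other groups, by a small margin. The log2 difference of model against control was 0.27 (adjusted p = 0.143, limma), and after scaling it was -0.18, so that its direction also depended on the scale. For phloridzin against model the difference was -0.38, with a limma adjusted p of 0.0857, and after scaling it was -0.20 (0.462). The intron-retaining transcript of Glud1, a minor part of its sum, was 5.81 ± 1.55 FPKM in control livers, 16.6 ± 3.08 in model livers, 7.26 ± 2.03 in silibinin livers and 5.19 ± 0.712 in phloridzin livers (SD, n = 3).

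**Figure D2:**
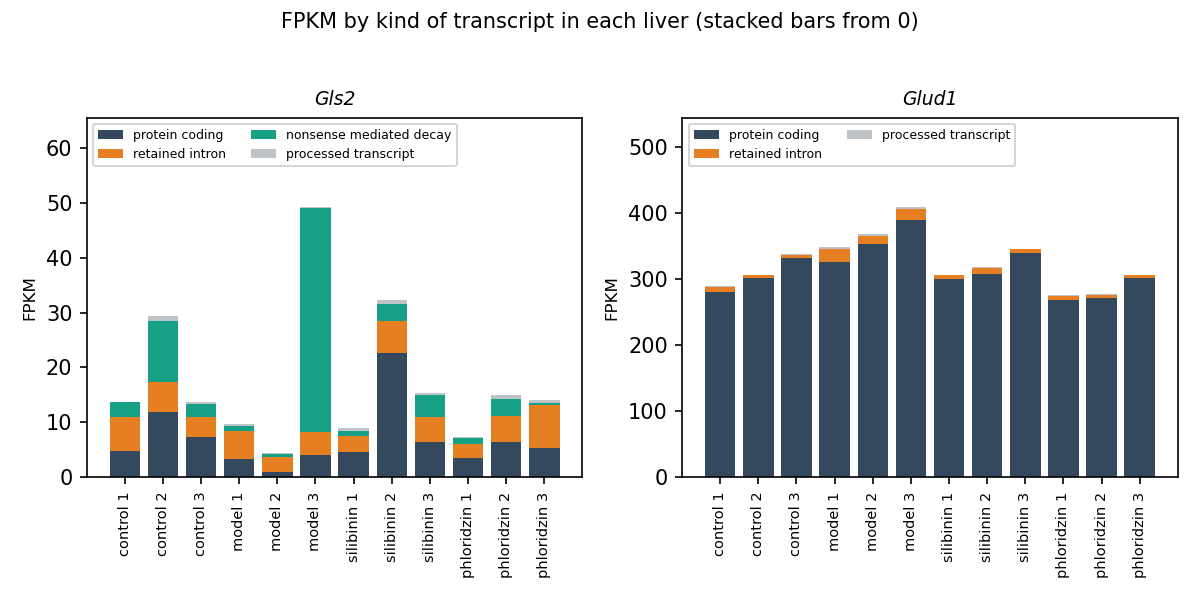
FPKM of Gls2 and Glud1 in each liver, stacked by the annotated kind of transcript (linear axes from 0). In model replicate 3 transcripts annotated for nonsense-mediated decay made up 40.9 of 49.2 FPKM of Gls2.

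Glul, glutamine synthetase, gave the clearest result of the set. Glul was measured at 451, 299.5 and 383 FPKM in control livers, 31.1, 34.1 and 36.4 in model livers, 53.7, 73.4 and 57.1 in silibinin livers, and 52.9, 78.0 and 55.5 in phloridzin livers. The 4 groups formed 3 levels that did not overlap, with control highest, model lowest and the drug groups together in between, closer to model. The mean was 11.2 times lower in model than in control livers (33.9 ± 2.69 against 378 ± 76.0 FPKM, SD, n = 3), a log2 fold change of -3.43 (standard error 0.20; adjusted p = 4.36e-06, limma with Benjamini-Hochberg adjustment) with all 3 model livers below all 3 control livers. In whole liver, fewer Glul-expressing cells and less Glul RNA per cell cannot be told apart. The protein-coding Glul sum was 366 ± 74.5 FPKM in control and 32.2 ± 2.55 in model livers, and the intron-retaining transcript was 10.7 ± 2.86 in control and 1.51 ± 0.255 in model livers.

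With drug treatment Glul rose above the model level and stayed far below control. Silibinin livers had 61.4 ± 10.5 FPKM, 1.81 times the model mean, with a log2 fold change of 0.83 (adjusted p = 0.0200, limma with Benjamini-Hochberg adjustment). Phloridzin livers had 62.1 ± 13.8 FPKM, 1.84 times the model mean, with a log2 fold change of 0.84 (adjusted p = 0.0212, limma), and in both drug groups 3 of 3 livers were above all model livers. Both calls used the same model livers and were lost without model replicate 1 (adjusted p = 0.0648 for silibinin and 0.0707 for phloridzin, limma) or model replicate 2 (0.0584 and 0.0613). The silibinin call was also lost without silibinin replicate 2 (adjusted p = 0.0713, limma), and the phloridzin call without phloridzin replicate 2 (0.0807) or when only the phloridzin and model livers entered the fit (0.0590). After scaling Glul was higher by 1.04 with silibinin (limma adjusted p = 0.0113) and by 1.01 with phloridzin (0.0136). Compared with control, Glul was lower by a log2 fold change of -2.60 in silibinin livers (adjusted p = 0.000202, limma) and -2.59 in phloridzin livers (adjusted p = 0.000247, limma). The difference of phloridzin from silibinin was 0.01 with a 95% interval of -0.43 to 0.45, which does not show that the drugs acted alike.

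**Figure D3:**
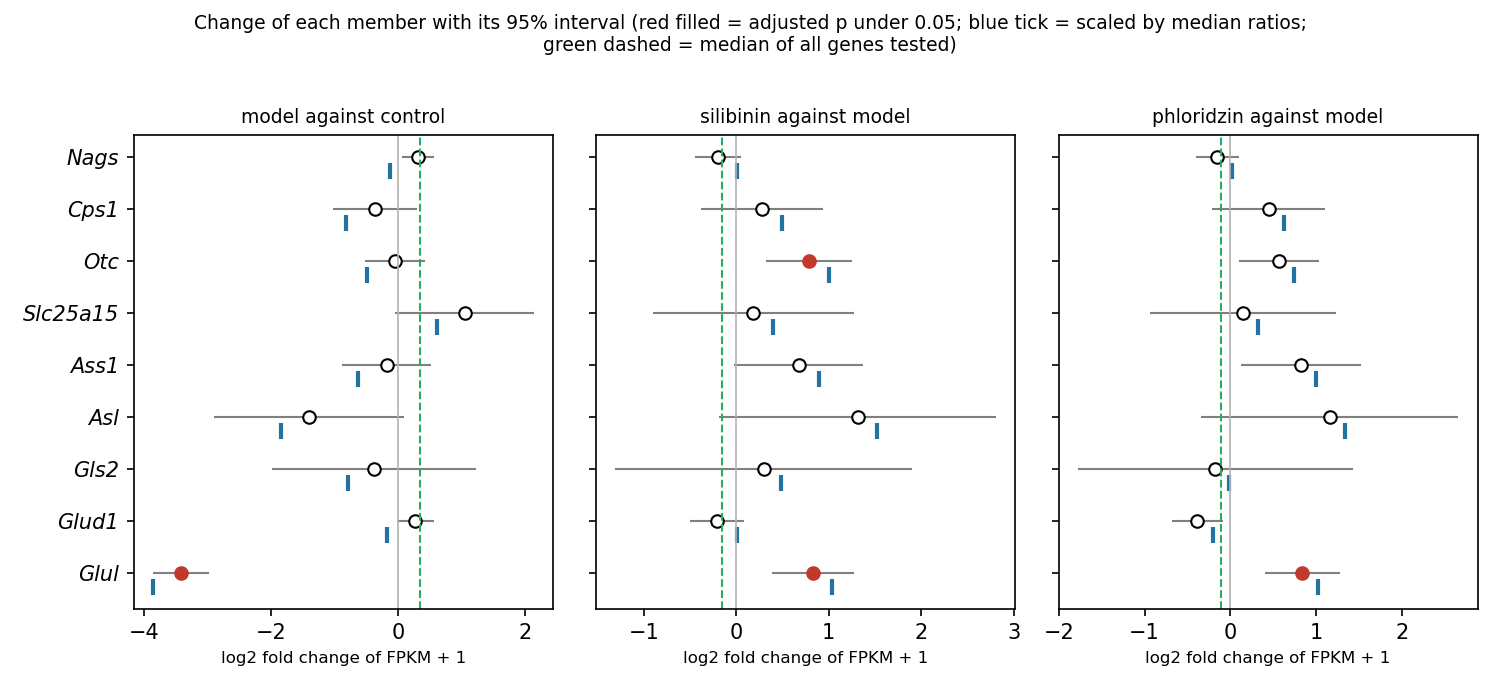
Log2 fold change of the 9 genes described (horizontal axis, on the log2 scale of FPKM + 1) with its 95% interval for model against control and for each drug against model; filled points passed an adjusted p of 0.05, ticks below the points give the value after scaling by median ratios, and the dashed line is the median of all genes. Glul passed in each panel, at -3.43, 0.83 and 0.84, and Otc passed for silibinin at 0.79; the ticks of Nags and Glud1 fell on the other side of 0 for model against control.

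The start regions of the called members were read from the RefSeq table for the mouse build GRCm38.p6, which matched 6 of the 10 members with 7 windows. The 250 bases before the start of Glul and of Otc are shown because these are the members that passed a test; capitals mark a match, on either strand, to the box spelled CCAAT, to GGGCGG as bound by Sp1 factors, to the promoter element TATAAA or to CTTTGA as bound by the Wnt pathway factors, and both genes lie on the plus strand.
Glul, chr1:153899679-153899928: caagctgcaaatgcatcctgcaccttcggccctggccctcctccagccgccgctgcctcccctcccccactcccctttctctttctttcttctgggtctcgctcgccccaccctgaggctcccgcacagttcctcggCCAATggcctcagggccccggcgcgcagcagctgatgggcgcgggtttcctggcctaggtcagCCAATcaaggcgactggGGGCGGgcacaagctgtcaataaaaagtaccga
Otc, chrX:10252055-10252304: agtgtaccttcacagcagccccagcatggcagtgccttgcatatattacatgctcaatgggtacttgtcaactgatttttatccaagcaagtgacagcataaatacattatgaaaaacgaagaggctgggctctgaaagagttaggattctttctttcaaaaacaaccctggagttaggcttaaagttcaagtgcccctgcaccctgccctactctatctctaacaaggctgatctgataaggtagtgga
The Glul window held 2 CCAAT matches and 1 GGGCGG match and no TATAAA or CTTTGA, with 64.8% G and C. The Otc window held none of the 4 motifs and 43.6% G and C, against a median of 52.4% over 32851 promoter windows. Of these windows of the same length, 33.8% held CCAAT, 32.7% GGGCGG, 12.4% TATAAA and 13.8% CTTTGA. Among the other members, the window of Nags held 1 CTTTGA match and 2 GGGCGG matches, those of Ass1 and Glud1 held 1 and 3 GGGCGG matches, and the windows of Slc25a15 held 2 and 5. Windows of Cps1, Asl and Gls2 were not analysed here. A match describes the letters only.

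To set the periportal enzymes against Glul without the scale of a library, the ratio of FPKM within each liver was taken. The log2 ratio of Gls2 to Glul was -5.04, -3.35 and -4.81 in control livers, -1.69, -2.93 and 0.43 in model livers, -2.59, -1.18 and -1.90 in silibinin livers, and -2.85, -2.37 and -1.97 in phloridzin livers. In these sums of all transcripts, all livers given CCl4 were above all control livers, and the CCl4 groups overlapped each other. In protein-coding transcripts alone, model replicate 2 (Gls2 1.03 and Glul 32.3 FPKM) had a lower ratio than control replicate 2 (11.9 and 288 FPKM). Model and control livers then overlapped. The mean log2 ratio of Gls2 to Glul was higher by 3.01 in model than in control livers, 8.05-fold, with an exact permutation p of 0.1, which is the smallest that 3 livers against 3 can give in a 2-sided test and cannot reach 0.05. This difference was 3.78 without model replicate 2 and 2.095 without model replicate 3. Between the drug groups and model the difference was -0.50 for silibinin (exact permutation p = 0.8) and -1.005 for phloridzin (p = 0.5), and both signs turned when protein-coding transcripts alone were summed, to 1.01 and 0.18. These differences were -1.26 and -1.77 without model replicate 2, and 0.42 and -0.09 without model replicate 3.

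The log2 ratio of Cps1 to Glul was 1.92, 2.47 and 1.41 in control livers, 4.97, 4.92 and 5.19 in model livers, 4.50, 4.37 and 4.51 in silibinin livers, and 4.27, 4.36 and 5.22 in phloridzin livers. Control livers stood apart from all others, silibinin livers were all below model livers, and phloridzin replicate 3 was at the level of the model group. The log2 ratios of Ass1 and Otc to Glul, not tested, also set control livers apart, but silibinin and model livers overlapped, at 4.50 to 4.68 and 4.58 to 4.92 for Ass1 and at 0.18 to 0.87 and 0.12 to 0.69 for Otc. Cps1 thus exceeded Glul 3.82-fold in control livers by geometric mean, 32.6-fold in model, 22.0-fold in silibinin and 24.5-fold in phloridzin livers. The difference of model from control was 3.09 and that of silibinin from model was -0.57, each at the smallest exact permutation p of 0.1 (0.267 after Benjamini-Hochberg adjustment over the 8 ratio tests). For phloridzin it was -0.41 against model (exact permutation p = 0.4) and 0.16 against silibinin (exact p = 1), and the Gls2 ratio differed between the drugs by -0.51 (exact p = 0.4).

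**Figure D4:**
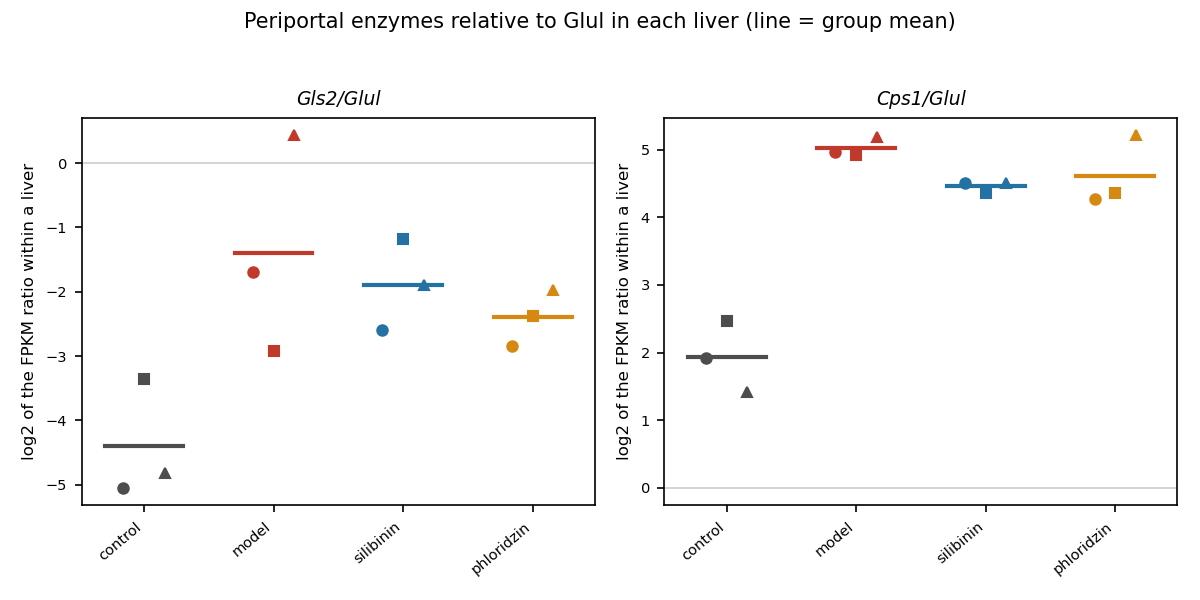
Log2 ratio of Gls2 to Glul and of Cps1 to Glul within each liver by group, with a line at the group mean. Control livers lie lowest in both panels, at -5.04 to -3.35 for Gls2 and 1.41 to 2.47 for Cps1, and silibinin livers lie below model livers for Cps1.

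Other genes of the pericentral zone were examined beside Glul. The shares of all genes to set beside the counts of this list and the following ones are, as deposited, 31.1% higher and 3.80% lower in model against control, 2.62% and 11.4% in silibinin against model, and 2.50% and 10.4% in phloridzin against model. After scaling, 1727 of 13086 genes were higher and 1547 lower in model against control. The scaled counts were 732 and 850 for silibinin against model and 621 and 823 for phloridzin against model. Against control they were 415 and 154 for silibinin and 559 and 218 for phloridzin. Of 22 listed pericentral genes tested, 8 fell and 1 rose in model livers (12 and 0 when scaled), with a median log2 fold change of -0.37 against 0.34 for all genes. The largest falls were those of Slc1a2, a glutamate transporter (50.0 ± 21.7 FPKM in control and 0.146 ± 0.150 in model livers; log2 fold change -5.41), Oat, the ornithine aminotransferase that shares the Glul-expressing layer (488 ± 58.5 and 15.6 ± 2.64; -4.89), and Cyp2e1, a P450 that activates CCl4 (2812 ± 1255 and 504 ± 38.5; -2.35). Their adjusted p values were 0.000337, 7.65e-05 and 0.00144 by limma. The gene that rose was Ahr, a receptor for xenobiotics (0.65; adjusted p = 0.0115, limma), a call lost after scaling (adjusted p = 0.394). Silibinin raised 3 pericentral genes against model, Rgn, Gulo and Lgr5, by 0.87, 0.87 and 0.78. Phloridzin raised 5: Cyp7a1, the first enzyme of bile acid synthesis, by 2.60, Oat by 1.64, the ammonium transporter Rhbg by 0.79 and, as with silibinin, Gulo by 0.65 and Lgr5 by 0.64. Gulo and Lgr5 with phloridzin were added after the values were seen. No pericentral gene fell in either drug comparison by limma, and after scaling 5 were higher with each drug. Between phloridzin and silibinin, 0 of the 22 pericentral genes passed by limma, as deposited or scaled. The following gene lists also gave 0, beside 0.00760% of all genes higher and 0.0152% lower as deposited. This does not show that the drugs acted alike. In comparison with control, Oat and Slc1a2 were still lower by -3.51 and -4.48 with silibinin and by -3.25 and -3.96 with phloridzin; Slc13a3 was also lower in both, and Cyp2e1 with phloridzin. These 4 were named after their values against control were seen. Oat with phloridzin lost its limma call without model replicate 1 (adjusted p = 0.107), model replicate 2 (0.0841), model replicate 3 (0.0651), phloridzin replicate 2 (0.126) or phloridzin replicate 3 (0.117), and also without the FPKM filter (0.0623), in a fit of the compared groups alone (0.111) or in its most abundant transcript (0.0568). Rhbg with phloridzin lost its limma call without model replicate 2 (adjusted p = 0.0806), model replicate 3 (0.0580), phloridzin replicate 1 (0.0508) or phloridzin replicate 2 (0.0674), and also in a fit of the compared groups alone (0.0618). Cyp7a1 with phloridzin lost its limma call without model replicate 2 (adjusted p = 0.0764), phloridzin replicate 2 (0.1097) or phloridzin replicate 3 (0.0897), and also without the FPKM filter (0.0551) or in a fit of the compared groups alone (0.104). Gulo with phloridzin lost its limma call without model replicate 2 (adjusted p = 0.0736), model replicate 3 (0.0544) or phloridzin replicate 2 (0.0832), and also in a fit of the compared groups alone (0.0710). Lgr5 with phloridzin lost its limma call without model replicate 2 (adjusted p = 0.0738), model replicate 3 (0.0734), phloridzin replicate 2 (0.0876) or phloridzin replicate 3 (0.0609), and also in a fit of the compared groups alone (0.0835). Without model replicate 2 the Cyp7a1 value was 1.80. With a pseudocount of 0.1 Lgr5 was higher by 1.19 with silibinin and by 1.00 with phloridzin. Cyp2e1 in model livers also lost its limma call (-1.07, adjusted p = 0.601) when its most abundant transcript stood for the gene.

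Of the 20 genes listed as periportal, 3 were higher and 3 lower in model livers (1 and 6 when scaled), beside 31.1% and 3.80% of all genes, with a median of -0.48 beside -0.37 for the pericentral genes (-0.89 and -0.81 when scaled). Dpt, Aldh1b1 and Hsd17b13 were higher by 1.95, 0.96 and 0.66, of which Aldh1b1 and Hsd17b13 did not pass after scaling (limma adjusted p of 0.101 and 0.516). Dpt, at 1.66 ± 0.721 FPKM in control and 9.05 ± 1.14 in model livers, passed after scaling (1.61, limma adjusted p = 0.00467). The cell source of Dpt in whole liver was not tested, so its rise is not read as one of periportal hepatocytes. Hal, which removes ammonia from histidine, Igfals and Apof were lower by -1.50, -1.09 and -0.58 (-1.03 for Apof when scaled). Silibinin livers had 4 periportal genes higher than model and 0 lower (6 and 0 when scaled), with a median of 0.60. Phloridzin livers had 3 higher and 0 lower (6 and 0 when scaled), also with a median of 0.60, beside -0.15 and -0.11 for all genes. Hal (1.51), Aldh1b1 (1.45) and Gldc (1.04) led with silibinin, and Etnppl (2.07), Fbp1 (1.62) and Aldh1b1 (1.26) with phloridzin. Hal in model livers lost its limma call without control replicate 2 (adjusted p = 0.0533) or model replicate 1 (0.0598). Hal with silibinin lost its limma call without model replicate 1 (adjusted p = 0.104), model replicate 2 (0.0599), silibinin replicate 1 (0.0719), silibinin replicate 2 (0.0755) or silibinin replicate 3 (0.0928), and also without the FPKM filter (0.0565) or in its most abundant transcript (0.0524). Hsd17b13 in model livers lost its limma call without control replicate 1 (adjusted p = 0.0695), control replicate 3 (0.0809), model replicate 2 (0.0833) or model replicate 3 (0.0697). Igfals in model livers lost its limma call without control replicate 1 (adjusted p = 0.0515), model replicate 1 (0.0582) or model replicate 2 (0.0570). Gldc with silibinin lost its limma call without model replicate 1 (adjusted p = 0.0770), model replicate 2 (0.0669), silibinin replicate 2 (0.0796) or silibinin replicate 3 (0.0645). Etnppl with phloridzin lost its limma call without model replicate 1 (adjusted p = 0.143), model replicate 2 (0.136), phloridzin replicate 2 (0.141) or phloridzin replicate 3 (0.120), and also with a pseudocount of 0.1 (0.0501), without the FPKM filter (0.0823), in a fit of the compared groups alone (0.0605), in protein-coding transcripts (0.0579) or in its most abundant transcript (0.0738). Fbp1 with phloridzin lost its limma call without model replicate 1 (adjusted p = 0.0987), model replicate 2 (0.0952), phloridzin replicate 1 (0.0564), phloridzin replicate 2 (0.0750) or phloridzin replicate 3 (0.102), and also without the FPKM filter (0.0615), in a fit of the compared groups alone (0.111) or in its most abundant transcript (0.0574). Compared with control, 5 periportal genes were higher and 0 lower with silibinin (3 and 0 when scaled), beside 4.59% and 0.433% of all genes. With phloridzin 3 were higher and 0 lower (2 and 0 when scaled), beside 7.51% and 0.479%. Aldh1b1 was the furthest above control, by 2.41 and 2.22. Dpt was counted among the higher genes with both drugs, at 1.64 and 2.01. Both zones thus held genes that were higher with the drugs than in model livers, and the difference between the zones was not tested.

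**Figure D5:**
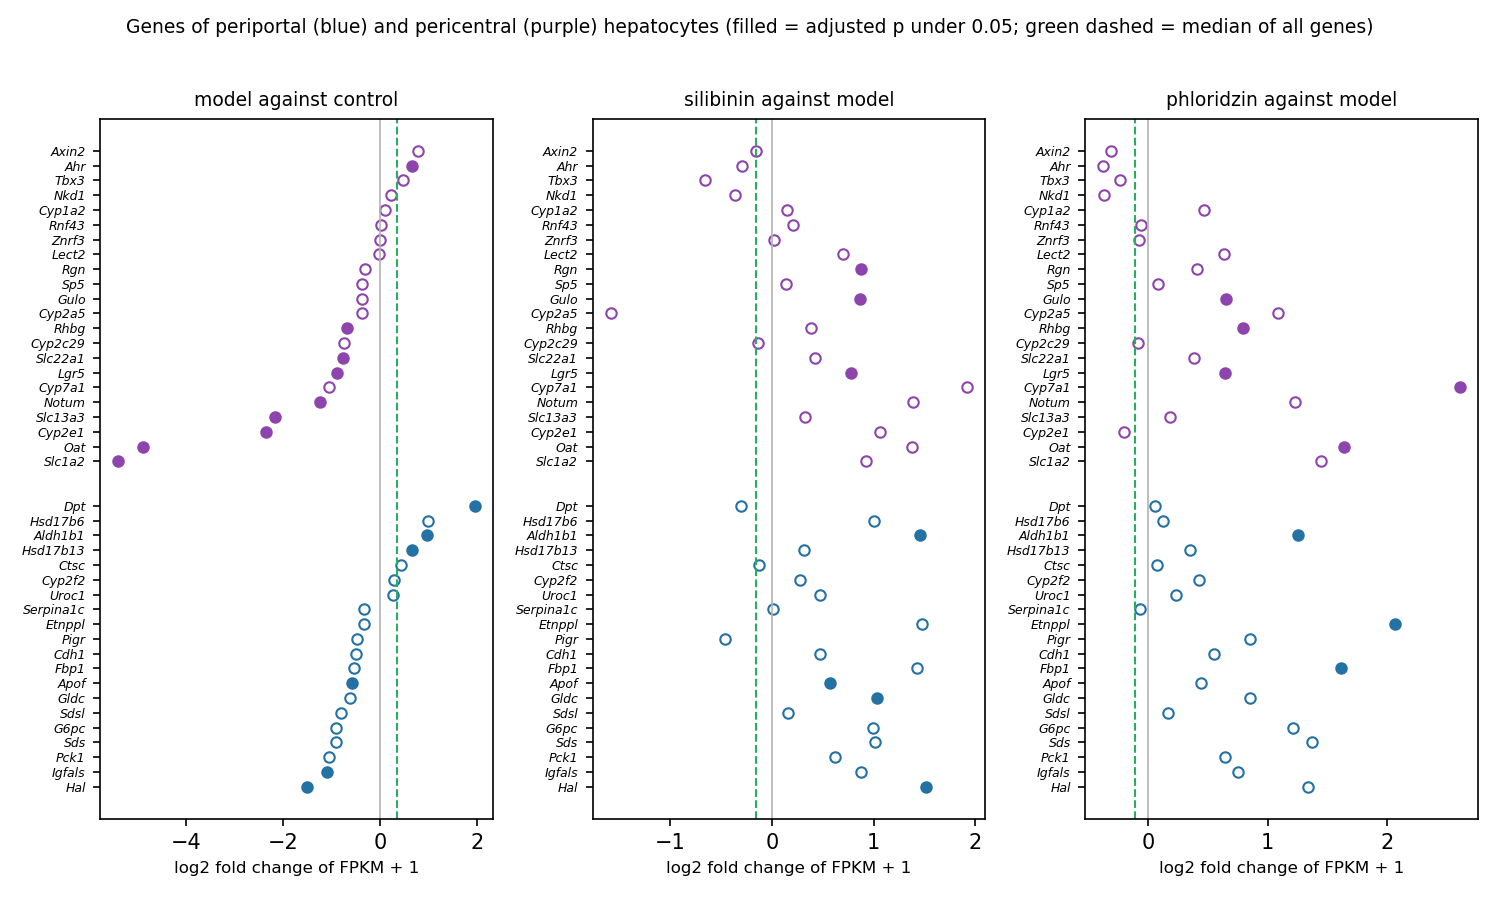
Log2 fold change (horizontal axes, on the log2 scale of FPKM + 1) of listed periportal genes (blue) and pericentral genes (purple) in model livers against control and in each drug group against model; filled points passed an adjusted p of 0.05 and the dashed line marks the median of all genes. In model livers 8 pericentral genes fell, Slc1a2 and Oat furthest at -5.41 and -4.89 as deposited; after scaling 12 fell.

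Of 14 tested genes that supply the urea cycle, 4 were lower, 1 was higher and 9 did not pass in model livers (8 lower and 1 higher when scaled). Beside Oat, these included Got1, the cytosolic aminotransferase that makes aspartate (154 ± 52.3 FPKM in control and 50.5 ± 16.7 in model livers; log2 fold change -1.58, adjusted p = 0.0294, limma), and Car5a, the mitochondrial carbonic anhydrase that supplies bicarbonate to Cps1 (11.2 ± 0.926 and 5.25 ± 0.960; -0.98, adjusted p = 0.00676, limma). Slc7a1, an arginine transporter that hepatocytes normally lack, rose from 0.197 ± 0.0831 to 3.40 ± 0.328 FPKM (1.88). Both drugs brought a rise of Car5a against model, by 1.10 with silibinin and 1.00 with phloridzin, and a fall of Slc7a1, by -1.41 and -1.42. Phloridzin livers had 4 of these genes higher and 1 lower than model (7 and 1 when scaled), among them Got1 at 1.87 and Oat at 1.64, and silibinin livers 1 and 1 (4 and 1 when scaled). With silibinin Got1 and Oat were higher by 1.15 and 1.38 but did not pass (limma adjusted p of 0.145 and 0.0630). In Oat the phloridzin values were uneven, at 57.6 ± 31.6 FPKM. Got1 in model livers lost its limma call without control replicate 1 (adjusted p = 0.0952), control replicate 2 (0.0725), model replicate 1 (0.0891) or model replicate 2 (0.0791), and also without the FPKM filter (0.0521). Got1 with phloridzin lost its limma call without model replicate 1 (adjusted p = 0.0987), model replicate 2 (0.0921), phloridzin replicate 2 (0.103) or phloridzin replicate 3 (0.101), and also without the FPKM filter (0.0559), in a fit of the compared groups alone (0.0976) or in its most abundant transcript (0.0509). Oat with phloridzin lost its limma call without model replicate 1 (adjusted p = 0.107), model replicate 2 (0.0841), model replicate 3 (0.0651), phloridzin replicate 2 (0.126) or phloridzin replicate 3 (0.117), and also without the FPKM filter (0.0623), in a fit of the compared groups alone (0.111) or in its most abundant transcript (0.0568). Car5a with phloridzin lost its limma call without model replicate 2 (adjusted p = 0.0594), phloridzin replicate 2 (0.0624) or phloridzin replicate 3 (0.0571), and also in a fit of the compared groups alone (0.0706). With a pseudocount of 0.1 the Slc7a1 changes were larger, at 3.59 in model livers and -2.22 and -2.24 with the drugs.

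Among 24 tested genes of glutamine and ammonia handling outside the set or, for Glud1, within it, 8 were higher and 4 lower in model livers (7 and 8 when scaled), where 31.1% of all genes were higher and 3.80% lower, and the median of 0.21 turned to -0.19 after scaling. Aldh18a1, which turns glutamate towards proline and ornithine, was 0.605 ± 0.0977 FPKM in control and 8.18 ± 0.325 in model livers (log2 fold change 2.52), Gfpt1, which spends glutamine on hexosamines, 8.77 ± 2.83 and 35.7 ± 3.07 (1.94), and the neutral amino acid transporter Slc1a4 1.57 ± 1.06 and 6.43 ± 0.420 (1.60). Besides Slc1a2, the alanine aminotransferase Gpt and the transporter Slc38a4 fell, by -0.87 and -0.85 (-1.298 for Slc38a4 when scaled). Silibinin lowered 5 of these genes against model and raised 1 (4 and 3 when scaled), and phloridzin lowered 4 and raised 2 (4 and 4 when scaled), and the median of -0.07 in both turned to 0.13 and 0.10 after scaling. Gfpt1, Aldh18a1 and Cad, which uses glutamine in pyrimidine synthesis, were lower by -2.24, -1.76 and -1.81 with silibinin and by -2.19, -1.45 and -1.33 with phloridzin. Gpt was higher by 1.32 and 1.301 with silibinin and phloridzin. Gpt in model livers lost its limma call without model replicate 1 (adjusted p = 0.0524). Slc38a4 in model livers lost its limma call without control replicate 1 (adjusted p = 0.125), control replicate 2 (0.104), control replicate 3 (0.0678), model replicate 1 (0.107), model replicate 2 (0.122) or model replicate 3 (0.0681), and also without the FPKM filter (0.0863), with a replicate block (0.0552), in protein-coding transcripts (0.0581) or in its most abundant transcript (0.102). Aldh18a1 with silibinin lost its limma call in its most abundant transcript (adjusted p = 0.0747). Aldh18a1 with phloridzin lost its limma call in its most abundant transcript (adjusted p = 0.141). Gpt in model livers also lost it in protein-coding transcripts alone (-0.54, adjusted p = 0.0832, limma), while its most abundant transcript passed (-2.47, adjusted p = 0.00274). With silibinin Gpt was higher by 0.73 in protein-coding transcripts and 3.53 in the most abundant one, and with phloridzin by 3.002 in the latter.

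Enzymes of amino acid breakdown, whose nitrogen the urea cycle receives, were lower in model livers for 12 of 41 genes and higher for 2 (25 and 1 when scaled), with a median log2 fold change of -0.42 beside 0.34 for all genes. Hal, Tdo2, which opens the ring of tryptophan, and Agxt, the alanine-glyoxylate aminotransferase, led the falls at -1.50, -1.48 and -1.19. Amdhd1, which acts after Hal in histidine breakdown, went the other way at 1.86, as did Pcca at 0.77, whose value was -0.00082 when protein-coding transcripts alone were summed. Silibinin livers had 11 of the 41 higher than model and 1 lower (20 and 1 when scaled), and phloridzin livers 10 and 1 (14 and 1 when scaled). With silibinin Tdo2, Hal and Agxt were higher by 1.53, 1.51 and 1.33, and with phloridzin Tdo2, Aass and Ftcd by 1.82, 1.31 and 1.18. Hal with phloridzin (1.33, limma adjusted p = 0.0549) and Ftcd with silibinin (1.07, 0.0573) did not pass. Amdhd1 was the gene that was lower, by -2.65 and -2.33. Hal in model livers lost its limma call without control replicate 2 (adjusted p = 0.0533) or model replicate 1 (0.0598). Hal with silibinin lost its limma call without model replicate 1 (adjusted p = 0.104), model replicate 2 (0.0599), silibinin replicate 1 (0.0719), silibinin replicate 2 (0.0755) or silibinin replicate 3 (0.0928), and also without the FPKM filter (0.0565) or in its most abundant transcript (0.0524). Pcca in model livers lost its limma call without control replicate 1 (adjusted p = 0.131), control replicate 2 (0.142), model replicate 1 (0.0964), model replicate 2 (0.126) or model replicate 3 (0.0770), and also without the FPKM filter (0.0790), after scaling (0.275), with a replicate block (0.0793), in protein-coding transcripts (0.999) or in its most abundant transcript (0.0518). Aass with phloridzin lost its limma call without model replicate 1 (adjusted p = 0.0976), model replicate 2 (0.101), model replicate 3 (0.0696), phloridzin replicate 2 (0.123) or phloridzin replicate 3 (0.102), and also without the FPKM filter (0.0648), in a fit of the compared groups alone (0.145) or in its most abundant transcript (0.0573). Ftcd with phloridzin lost its limma call without model replicate 1 (adjusted p = 0.104), model replicate 2 (0.108), phloridzin replicate 2 (0.129) or phloridzin replicate 3 (0.123), and also without the FPKM filter (0.0738), in a fit of the compared groups alone (0.157) or with a replicate block (0.0663). Without model replicate 2 the Ftcd value was 0.77, and its call was also lost in protein-coding transcripts alone (3.61, adjusted p = 0.0527, limma) and in its most abundant transcript (0.75, adjusted p = 0.121).

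The polyamine, nitric oxide and creatine genes, which draw on ornithine and arginine, were higher in model livers for 9 of 16 genes and lower for 0 by limma (5 and 2 when scaled), where 31.1% of all genes were higher. Srm, spermidine synthase, was 9.36 ± 0.732 FPKM in control, 44.5 ± 2.95 in model, 6.60 ± 0.271 in silibinin and 7.70 ± 0.417 in phloridzin livers, with log2 fold changes of 2.14 for model against control and -2.58 and -2.39 for the drugs against model. Sat1 and Ckb were higher in model livers by 1.52 and 1.12. Odc1, which makes putrescine from ornithine, and its regulator Azin1 were lower with silibinin by -1.34 and -0.91 and with phloridzin by -1.18 and -0.82, and Ddah1 was higher with silibinin by 0.72. The Azin1 calls were lost after scaling (limma adjusted p of 0.0505 and 0.0714), and its sign with silibinin turned to 0.12 when the most abundant transcript stood for the gene. In all, 5 genes fell and 1 rose with silibinin, and 4 fell and 0 rose with phloridzin (4 and 3, and 3 and 1, when scaled). Ddah1 with silibinin lost its limma call without model replicate 1 (adjusted p = 0.0771), model replicate 2 (0.0733), silibinin replicate 1 (0.0929) or silibinin replicate 2 (0.0775), and also in a fit of the compared groups alone (0.0691), in protein-coding transcripts (0.0559) or in its most abundant transcript (0.0742). Azin1 with silibinin lost its limma call without model replicate 1 (adjusted p = 0.0978), model replicate 3 (0.0574), silibinin replicate 1 (0.0659) or silibinin replicate 3 (0.107), and also in protein-coding transcripts (0.894) or in its most abundant transcript (0.892). Azin1 with phloridzin lost its limma call without model replicate 1 (adjusted p = 0.154), model replicate 2 (0.0642), model replicate 3 (0.0838), phloridzin replicate 1 (0.0573), phloridzin replicate 2 (0.115) or phloridzin replicate 3 (0.133), and also with a pseudocount of 0.1 (0.0535), without the FPKM filter (0.0755), in a fit of the compared groups alone (0.0664), in protein-coding transcripts (0.359) or in its most abundant transcript (0.353).

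Of 18 listed regulators of these enzymes, 3 rose and 1 fell in model livers, where 31.1% of all genes were higher and 3.80% lower. After scaling none rose and 5 fell by limma, where 1727 of 13086 genes were higher and 1547 lower. Cebpa, a factor of mature hepatocytes, fell from 148 ± 12.1 to 88.2 ± 22.0 FPKM (log2 fold change -0.77, adjusted p = 0.0103, limma; -1.21 when scaled). Creb1, Cebpb and Foxa3 were higher by 0.89, 0.78 and 0.64, and these 3 calls were lost after scaling. With silibinin Cebpa was higher by 0.76 and Cebpb lower by -1.13, and with phloridzin Cebpb was lower by -1.12, where the list median of -0.09 turned to 0.08 after scaling. Creb1 in model livers lost its limma call without control replicate 2 (adjusted p = 0.132), control replicate 3 (0.131), model replicate 1 (0.117), model replicate 2 (0.0565) or model replicate 3 (0.0991), and also without the FPKM filter (0.0721), in protein-coding transcripts (0.204) or in its most abundant transcript (0.736). Cebpb in model livers lost its limma call without control replicate 3 (adjusted p = 0.0687) or model replicate 2 (0.0543), and also in a fit of the compared groups alone (0.0527). Foxa3 in model livers lost its limma call without control replicate 2 (adjusted p = 0.0978), control replicate 3 (0.0739), model replicate 2 (0.0557) or model replicate 3 (0.0984), and also in a fit of the compared groups alone (0.0561). Cebpa with silibinin lost its limma call without model replicate 2 (adjusted p = 0.0710), silibinin replicate 1 (0.0731) or silibinin replicate 2 (0.0701), and also in a fit of the compared groups alone (0.0612). Cebpb with phloridzin lost its limma call in a fit of the compared groups alone (adjusted p = 0.0560).

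Markers of other cells were counted beside the 31.1% of all genes called higher in model livers, or 1727 of 13086 when scaled. Of 13 markers of stellate cells and myofibroblasts 11 were higher in model livers and 0 lower by limma (8 and 0 when scaled). Their summed FPKM was 94.8, 84.1 and 97.4 in control livers, 271, 268 and 311 in model livers, 271, 317 and 150.1 in silibinin livers, and 366, 226 and 195 in phloridzin livers. Dcn was the most abundant, and Col1a1 the most changed in model livers (4.35), before Col3a1 (3.75) and Lum (2.54). Macrophage markers, led by Lyz2, summed to 205, 339.9 and 301 FPKM in control livers, 473, 787 and 641 in model livers, 523, 712 and 532 in silibinin livers, and 902, 887 and 496 in phloridzin livers, with 6 of 14 higher in model (2 when scaled). Of the 9 hepatocyte markers tested, 0 passed by limma in model against control or in either drug comparison with model, and their sum, mostly Alb, was 22259 ± 3390.1 FPKM in control, 27653 ± 6507 in model, 32610.2 ± 7253 in silibinin and 30295 ± 5170.3 in phloridzin livers (SD, n = 3). Cholangiocyte markers (Spp1 the most abundant) summed to 15.6 ± 3.40 FPKM in control and 53.1 ± 4.51 in model livers, with 2 of 4 tested higher (1 when scaled), and neutrophil markers (S100a8) to 18.4 ± 8.21 and 50.2 ± 22.9, with 2 of 4 (1 when scaled). The list of lymphocyte markers summed to 8.46 ± 1.60 and 24.7 ± 4.02 FPKM, with 1 of 6 higher on both scales. That gene was Ptprc, at 5.36 and 17.8 FPKM, so the sum and the call rest mostly on Ptprc. Proliferation genes (Top2a) summed to 1.62 ± 0.600 and 17.2 ± 1.93 FPKM, with 2 of 6 higher on both scales. Endothelial markers (Clec4g) summed to 90.4 ± 13.1 and 99.6 ± 11.8 FPKM and erythroid genes (Hbb-bs) to 1070.0 ± 86.1 and 726 ± 131, and 0 of 10 and 0 of 5 passed by limma (1 and 2 lower when scaled). No marker in the table was at 0 in all 12 livers. Against model, the stellate marker Lrat was lower with phloridzin (-0.83, limma adjusted p = 0.0149). With silibinin the neutrophil marker Retnlg was lower (-1.36, 0.0406) and the erythroid gene Alas2 higher (0.54, 0.0203). Each lost its call in some fits without 1 liver, with limma adjusted p up to 0.0629, 0.139 and 0.0768. Lrat also lost it with only the compared groups (0.0513), Retnlg after scaling (0.0740) and Alas2 in its most abundant transcript (0.212). Itgam in model livers lost its limma call in its most abundant transcript (adjusted p = 0.0939). C1qb in model livers lost its limma call without control replicate 1 (adjusted p = 0.0510) or model replicate 2 (0.0502), and also after scaling (0.103). Krt19 in model livers lost its limma call without control replicate 1 (adjusted p = 0.0529), control replicate 2 (0.0503), model replicate 2 (0.0626) or model replicate 3 (0.0594), and also after scaling (0.0848). Retnlg in model livers lost its limma call without control replicate 2 (adjusted p = 0.122), control replicate 3 (0.0538), model replicate 2 (0.118) or model replicate 3 (0.0783), and also without the FPKM filter (0.0612), after scaling (0.138) or in its most abundant transcript (0.0577). Csf3r in model livers lost its limma call in its most abundant transcript (adjusted p = 0.0862). Ccnb1 in model livers lost its limma call without control replicate 1 (adjusted p = 0.0506), control replicate 2 (0.0512) or model replicate 3 (0.0573), and also in protein-coding transcripts (0.0543) or in its most abundant transcript (0.141). Top2a in model livers lost its limma call without control replicate 1 (adjusted p = 0.0805), control replicate 2 (0.0557), control replicate 3 (0.0539), model replicate 1 (0.0670), model replicate 2 (0.0567) or model replicate 3 (0.0655), and also in its most abundant transcript (0.0529). These are markers of macrophages (Itgam, C1qb), cholangiocytes (Krt19), neutrophils (Retnlg, Csf3r) and proliferation (Ccnb1, Top2a). The part of these cells in the fall of Glul was not tested. Proliferation genes stood apart in phloridzin replicate 1, the liver with low Ass1, Asl and Cps1, at a sum of 106 FPKM beside 13.8 and 10.7 in the other phloridzin livers. The same liver had the highest stellate sum and the highest cholangiocyte sum of its group (55.1 beside 28.6 and 27.99) and the lowest erythroid sum (308 beside 623 and 896). The part of these markers in its values was not tested.

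Genes whose profile over the 12 livers was nearest to that of a member were found among 6058 other genes with a mean of at least 5 FPKM, by the root mean square distance of centred log2 values. For Glul they were Lhpp (distance 0.39), Cyp2c37 (0.42) and Cyp2c54 (0.70). The root mean square of the centred profile of Glul itself was 1.304. Lhpp was 33.4 FPKM in control, 1.496 in model, 5.11 in silibinin and 6.23 in phloridzin livers on average, and Cyp2c37 was 172, 15.7, 27.8 and 19.4. For Cps1 the nearest were Ahcy (0.14), Gm4737 (0.19) and Smim13 (0.20) beside a spread of 0.34 of its own. For Gls2 they were Clta (0.56), Smim15 (0.60) and Irf2bp2 (0.62) beside 0.86.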

How the data were processed

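RNA from 12 mouse livers was sequenced by the authors on the Illumina NovaSeq platform. They deposited FPKM values for 169430 transcripts, and the submitters' processing notes name bcl2fastq, FastQC 0.11.5, HISAT2 2.1.0, StringTie 1.3.3b, DESeq 1.28.0 and the build mm10. Of these transcripts 82136 carried a symbol and 18991 were assembled without one. Doses were 27.3 mg/kg silibinin and 40 mg/kg phloridzin; the labels name the drugs and the study's methods give the doses. FPKM were summed per symbol. limma 3.58.1 in R 4.3.3, with a trend in the variance, was run on log2(FPKM + 1) in 1 fit of the 12 livers for genes with a mean of at least 0.5 FPKM, so fold changes of low genes are understated; p values were 2-sided and adjusted by Benjamini-Hochberg over all 13158 genes. Titles number the samples and do not name animals; each was taken as a separate mouse. Ratios within a liver were tested by exact permutation (scipy 1.17.1), and figures used matplotlib 3.10.9. Low FPKM values were whole multiples of 1 fragment (within 0.1) for 99.0% to 99.5% of values per liver, which gave the depths; no counts were used. Ensembl positions matched GENCODE M21 for 98.1% of transcripts, and promoters came from RefSeq. Of each gene list, up to 3 genes per direction with the largest passing change are named, and the 3 nearest profiles for Glul, Gls2 and Cps1. Members and lists were chosen with earlier results of these data known. Replicate numbers were not taken as pairs. Alternatives were another pseudocount (0.1), filter (none or 5 FPKM) or scaling, other transcript sums, fits of 2 groups, a replicate block and leaving out each liver. NONCODE transcripts were not assigned to genes. Values of 1 member are not reported here; counts of members cover all 10.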

Additional observations from a re-analysis of the deposited data

Results flagged for a closer look

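Transcripts of the NONCODE collection, which were not part of the gene sums, overlap Glud1 on its own strand, and their level was higher in model livers than in control livers. The 3 transcripts summed to 13.4, 11.7 and 9.44 FPKM in control livers, 31.4, 25.8 and 32.2 in model livers (mean 29.8), 12.01, 16.6 and 15.3 in silibinin livers, and 15.8, 10.2 and 10.4 in phloridzin livers. Every model liver was above every other liver. The difference was not tested.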

How the results depend on the processing

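Counts of members that passed and signs of fold changes were followed over the alternatives. In model against control 1 member passed, and 2 did when only these groups were fitted or in some fits without 1 liver (range 1 to 2). In silibinin against model 2 passed, 0 with a log2 fold change beyond 1 as well, and 0 to 2 without 1 liver. In phloridzin against model 1 passed, 2 after scaling, 0 when only these groups were fitted, 0 with the fold threshold, and 0 to 3 without 1 liver. Against control 1 to 2 passed for each drug without 1 liver. A replicate block gave 1, 2 and 1 members for model against control, silibinin against model and phloridzin against model; same-number livers had residual correlations from -0.09 to 0.10, so pairing was not used. The Gls2 to Glul ratio turned with protein-coding transcripts for silibinin (1.01) and phloridzin (0.18) against model, and with the highest transcript (1.41 and 0.25); without 1 liver it ran from -1.26 to 0.42 for silibinin, and the Cps1 ratio between the drugs from -0.14 to 0.33. After scaling these signs turned: Nags in model against control -0.13, silibinin against model 0.0100, phloridzin against model 0.0227, silibinin against control -0.12 and phloridzin against control -0.11; Glud1 -0.18 in model against control, 0.00419 in silibinin against model and -0.18 in silibinin against control; Cps1 -0.19 in phloridzin against control; Glul -0.0244 between the drugs. With protein-coding transcripts alone they were Pcca -0.00082 in model against control, Slc25a15 -0.14 and Gls2 0.75 in phloridzin against model, Gls2 0.23 in silibinin against control and Nags -0.0119 between the drugs. With the highest transcript they were Azin1 0.12 in silibinin against model, Slc25a15 -0.14 and Gls2 0.64 in phloridzin against model, Asl 0.77 and Gls2 0.22 in silibinin against control, Asl 0.15 in phloridzin against control, and Nags -0.0119 and Glul -0.0021 between the drugs. Ranges without 1 liver that crossed 0 were, in model against control, Otc -0.20 to 0.12 and Gls2 -1.29 to 0.31; in silibinin against model, Gls2 -0.40 to 1.20; in phloridzin against model, Slc25a15 -0.12 to 0.35 and Gls2 -0.87 to 0.73; between the drugs, Nags -0.0096 to 0.0844, Cps1 -0.0653 to 0.44, Slc25a15 -0.31 to 0.17, Ass1 -0.14 to 0.53, Asl -0.63 to 0.74 and Glul -0.16 to 0.14; in silibinin against control, Cps1 -0.33 to 0.0422, Asl -0.30 to 0.23 and Gls2 -0.55 to 0.32; in phloridzin against control, Cps1 -0.17 to 0.35 and Asl -0.73 to 0.64. Calls of single genes were counted per comparison, so a gene could appear in several. Of these calls, 21 were lost when only the compared groups were fitted, 23 with the highest transcript and 15 without a filter. After scaling 13 were lost, with protein-coding transcripts 11 and with a replicate block 4. These are counts and not shares of the calls followed, and a fit of 2 groups estimates the spread from fewer livers. Among fits without 1 liver, 33 calls were lost without model replicate 2, 23 without model replicate 1 and 18 without model replicate 3. Model livers entered every comparison in which list genes were followed, and control or drug livers only some. Counts of lost calls therefore cannot be compared between livers of different groups.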
